A study of Mus musculus with 12 samples.

Results

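Mitochondrial ribosomal proteins are encoded in the nucleus, made in the cytosol and imported into mitochondria, where they assemble with mitochondrial ribosomal RNA into the mitoribosome. The mitoribosome translates the few mRNAs of the mitochondrial genome, all for subunits of the respiratory chain and the ATP synthase. Its large subunit (the Mrpl genes) holds the catalytic centre and the exit tunnel, and its small subunit (the Mrps genes) binds the mRNA. The genes were taken by symbol, as Mrpl or Mrps followed by a number and at most the letter a, b or c. Of 14360 genes listed in all 4 deposited tables, 72 carry such a symbol. A further 2 match in fewer tables and were set apart: Mrpl28 stands in the homogenate table alone, with at most 0.154 CPM (read counts scaled to a common library total), and Mrpl49 in every table but that of the day 6 synapse pair, with at most 0.443 CPM.

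The symbols do not sort the proteins exactly. By current knowledge of the structure, 45 of the 72 belong to the large subunit, among them Mrps30 and Mrps18a in spite of their names, and 26 to the small subunit. Mrps36 belongs to neither: its product is a component of the α-ketoglutarate dehydrogenase complex of the citric acid cycle. Mitoribosome proteins with other symbols, such as Dap3 and Ict1, were kept out of all counts of the 72.

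RNA came from hippocampus of C57BL6/J mice in a study of learning and memory, and 12 libraries were sequenced. The arm labelled L is headed training, learned or T in the tables, and the arm labelled C is headed control or C. The synapse fraction (SYN) has 1 L and 1 C library on each of days 1, 6 and 20, and the whole homogenate (HOM) has 3 L and 3 C libraries on day 6. The labels do not say how the fraction was prepared, what the animals underwent, how old they were, or whether each library stands for another animal. The p-values therefore cover only the spread among these libraries, which may be technical. Fraction and table coincide, and the day 6 column headers carry the word Input while those of days 1 and 20 do not, so neither fraction and table nor day and this naming can be told apart.

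Total counts were between 9100192 and 15950350 per library, and 3 counts, the most that a count of 0 allows, were 0.188 to 0.330 CPM. The 10 most abundant genes took 6.75 to 8.99% of counts in SYN libraries and 2.96 to 3.42% in HOM libraries. Markers of glia were higher in SYN: summed over 4 genes each, astrocyte markers had 2322 to 2531 CPM in SYN against 1157 to 1298 CPM in HOM, and microglial markers had 194 to 419 CPM in SYN against 79.2 to 109 CPM in HOM. In the edgeR fits described below, with TMM scaling, 2 of the 5 neuronal markers were called higher and 2 lower in SYN of days 1 and 20. Of the 5 synaptic and dendritic mRNAs, 4 were called higher. On day 6, 2 neuronal markers were called higher and 3 lower, and 3 of 5 synaptic and dendritic mRNAs were called higher. In CPM, these 5 mRNAs did not lie above all homogenates on day 6. Summed, these 5 mRNAs had 5750 CPM in SYN L and 4890 CPM in SYN C on day 6, against 5207 to 6562 CPM in HOM. Csf1r, 1 of the 4 microglial genes, is not listed in the day 6 SYN table and had at most 0.614 CPM elsewhere. In bulk tissue, fewer cells of a type and less RNA per cell cannot be told apart.

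Of the 72 genes, 71 have coordinates in GENCODE M21 (build GRCm38, the mm10 of the submitters' processing notes), on 17 chromosomes, with 10 on chromosome 11. The transcribed spans of 23 overlap another coding gene, in 21 cases on the opposite strand, and the strand setting of the authors' counting is not given in the sources used here, so counts of such genes are uncertain. Mrpl46 (chr7:78775236-78783531) and Mrps11 (chr7:78783119-78792989) overlap each other. Mrpl23, Mrpl48 and Mrps36 have pseudogene copies by symbol, which can share reads with them.

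Promoters of nuclear genes for mitochondrial proteins are known for sites of the factors NRF1, GABPA (an ETS factor) and YY1. RefSeq promoters on GRCm38.p6, from 250 bases before to 50 after the start site, were matched for 63 of the 72 genes and searched on both strands for 3 cores. The ETS core CCGGAAG was found in 22 (34.9%), against 9.93% of all 27025 genes with a promoter and 17.5% of the 10536 that stand in all 4 tables. The NRF1 core GCATGCG was found in 8 (12.7%, against 4.01% and 6.76%), and the YY1 core GATGGCG in 8 (12.7%, against 4.04% and 6.79%). At least 1 core was found in 32 of the 63 (50.8%), against 16.2% of all 27025 genes with a promoter. This last share was not taken for the genes in all 4 tables, where the share of each single core was higher. The NRF1 core overlaps itself on the opposite strand. These are matches of letters, not sites shown to be bound. The 4 promoters below, from 120 bases before to 30 after the start site, show genes described further on: Mrps18a (chr17:46110884-46111033, plus strand) with an ETS and a YY1 core, Mrpl22 (chr11:58171544-58171693, plus strand) with an ETS core and the NRF1 core on both strands, Mrpl43 (chr19:45006413-45006562, minus strand) with the ETS core at 2 places, and Mrps36 (chr13:100744630-100744779, minus strand), without a match. Capitals mark the matches.
Mrps18a: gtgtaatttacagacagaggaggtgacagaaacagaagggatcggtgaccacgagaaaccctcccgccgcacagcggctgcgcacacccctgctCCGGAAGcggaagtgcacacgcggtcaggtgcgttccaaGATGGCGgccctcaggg
Mrpl22: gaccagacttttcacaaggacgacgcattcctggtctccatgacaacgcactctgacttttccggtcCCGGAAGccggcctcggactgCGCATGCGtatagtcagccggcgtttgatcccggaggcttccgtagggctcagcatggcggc
Mrpl43: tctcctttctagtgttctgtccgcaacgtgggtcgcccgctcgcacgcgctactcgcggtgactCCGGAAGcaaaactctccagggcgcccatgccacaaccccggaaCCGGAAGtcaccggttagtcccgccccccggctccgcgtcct
Mrps36: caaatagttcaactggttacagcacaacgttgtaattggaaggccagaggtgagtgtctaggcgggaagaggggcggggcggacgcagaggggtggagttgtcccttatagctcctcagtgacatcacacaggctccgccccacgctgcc

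The 72 mRNAs were of modest abundance. Together they took 0.116%, 0.0650% and 0.114% of counts in the SYN L libraries of days 1, 6 and 20, and 0.109%, 0.0639% and 0.107% in the SYN C libraries. In the homogenates they took 0.144%, 0.136% and 0.142% in L and 0.148%, 0.137% and 0.157% in C. Every SYN library lay below every HOM library, the day 6 SYN libraries lay lowest, and the arms overlapped in the homogenates. Summed CPM of large subunit genes was 1.40 to 1.82 times that of small subunit genes in SYN and 1.56 to 1.64 times in HOM.

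**Figure D1:**
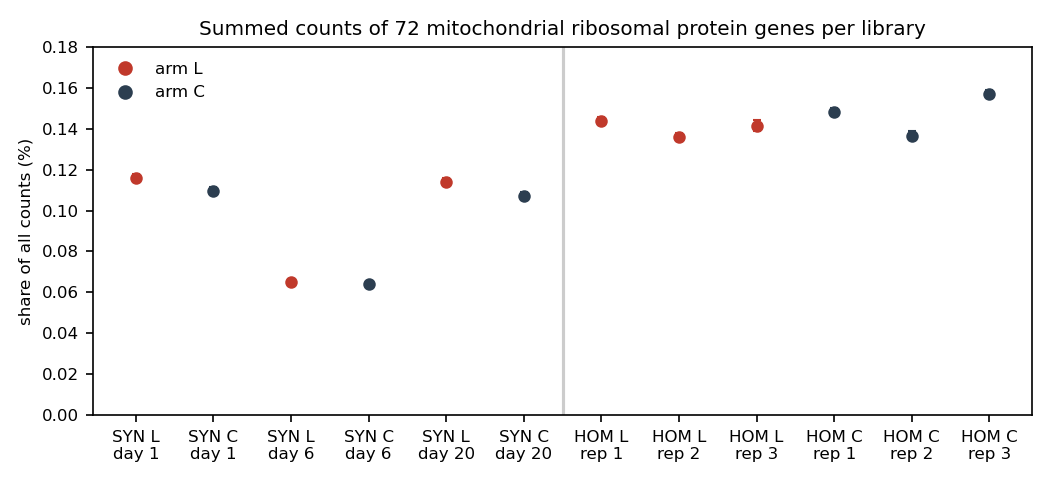
Share of all counts (percent, vertical axis) taken by the 72 mitochondrial ribosomal protein genes in each of the 12 libraries, with exact 95% binomial intervals that cover counting error only and are mostly smaller than the points. The SYN libraries of day 6 sit at 0.0650% (L) and 0.0639% (C), and all SYN libraries sit below all HOM libraries.

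Per kilobase of exon, the genes had a median of 6.71 RPKM (CPM per kilobase of exon, the mean of the 6 homogenates), against 5.27 RPKM over 14242 genes with a length. Their exon unions are short, with a median of 2533 bases against 4484 bases. Mrps21, a small subunit protein with a bacterial counterpart, had the highest level, 30.5 ± 3.79 RPKM (SD, n = 6). Mrpl41 followed with 26.9 ± 4.72 RPKM, Mrpl50 with 24.8 ± 2.53 RPKM, Mrps33 with 23.3 ± 4.47 RPKM and Mrpl18 with 19.3 ± 2.60 RPKM. The levels of Mrpl41, Mrpl50 and Mrps33 differ by less than the SD of Mrpl41. At the other end, Mrpl42 had 0.264 ± 0.107 RPKM, below Mrpl48 (1.39 ± 0.288 RPKM), Mrpl15 (1.44 ± 0.0954 RPKM), Mrpl23 (1.79 ± 0.275 RPKM) and Mrps35 (2.57 ± 0.132 RPKM). These 5 have exon unions above the median of the 72, from 3682 bases for Mrpl42 to 8631 for Mrps35, and Mrpl48 and Mrpl15 differ by less than their SDs. These are levels of mRNA over annotated exons and say nothing of protein.

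In whole hippocampus on day 6, no mitochondrial ribosomal protein gene passed the test between L and C. The quasi-likelihood test of edgeR (adjusted p under 0.05) called 0 of the 72 and 0% of all 13647 genes tested, DESeq2 and limma-voom called 0 of the 72, and 6 of the 72 had an unadjusted p under 0.05, against 8.92% of all genes. The median log2 difference (L minus C) was -0.07, beside 0.00 for all genes, with 24 genes above 0 and 48 below. Large and small subunit genes had medians of -0.06 and -0.07. The 4 other mitoribosome proteins tested lay between -0.26 and -0.06. Some homogenates stood apart in markers of other tissues. Alb, which encodes serum albumin and is a liver marker, had 1689 CPM in HOM L replicate 1 and 0 counts in the other 5 homogenates. Col1a1, a collagen gene of the meninges, had 426 CPM in HOM L replicate 3 and 321 and 521 CPM in HOM C replicates 1 and 3, against 6.83 to 8.68 CPM in the other 3. With any 1 of the 6 homogenates left out, edgeR again called 0 of the 72 genes.

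Mrps33, a small subunit protein without a bacterial counterpart (chr6:39801804-39810988), had the smallest p. It had 33.0, 33.4 and 31.4 CPM in HOM L, against 46.4, 49.0 and 40.0 CPM in HOM C. The groups do not overlap, and the L libraries lie close together. At -0.46 (SE 0.12, edgeR adjusted p = 0.467), it does not pass after adjustment. The same was found for Mrpl30, a large subunit protein, with 28.6, 24.1 and 28.4 CPM in HOM L against 34.4, 34.4 and 31.9 CPM in HOM C (-0.31, SE 0.12, edgeR adjusted p = 0.515).

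In the other direction, Mrpl19, a large subunit protein, had 33.6, 38.6 and 31.5 CPM in HOM L, against 27.2, 28.0 and 23.6 CPM in HOM C (0.41, SE 0.13, edgeR adjusted p = 0.504). Mrps18a had 14.4, 14.8 and 16.3 CPM in HOM L, against 12.3, 9.05 and 13.2 CPM in HOM C (0.40, SE 0.17, edgeR adjusted p = 0.548). Every L library lay above every C library for 4 of the 72 genes, against 7.69% of all genes, and below for 8, against 8.08%. Mrps25 and Mrps15 make up the 4 with Mrpl19 and Mrps18a. Mrps36 had 10.5, 5.89 and 9.67 CPM in HOM L, against 8.09, 6.30 and 9.97 CPM in HOM C, and Mrps30 differed by -0.07 (SE 0.15), both with overlapping groups.

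The synapse fraction has 1 library per arm and day, so within a day the arms can only be described. Ratios of L over C are given for genes that averaged 10 CPM or more over the pair, with exact 95% binomial intervals for counting error. On days 1 and 20 the pairs were nearly alike. The median log2 ratio over the 53 genes that reached this level on day 1 was 0.03, beside -0.01 for all genes, and over the 54 of day 20 it was 0.09, beside 0.01. A 2-fold ratio was reached by 0 of the 53 on day 1 (0.15% of all genes) and by 0 of the 54 on day 20 (0.0537% of all genes).

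The day 1 ratios at the ends were those of Mrps30 (0.44, interval 0.11 to 0.78), Mrpl45 (0.40) and Mrps14 (0.34) above 0, and of Mrps15 (-0.47, interval -0.80 to -0.15), Mrps23 (-0.37) and Mrps10 (-0.32) below. On day 20 they were those of Mrps31 (0.92, interval 0.58 to 1.29), Mrps11 (0.42) and Mrps30 (0.41) above 0, and of Mrpl47 (-0.44, interval -0.81 to -0.08), Mrpl38 (-0.33) and Mrpl3 (-0.21) below. Mrps31, a small subunit protein, had 17.5 CPM in SYN L and 9.21 CPM in SYN C on day 20, but 11.7 CPM in SYN L and 11.1 CPM in SYN C on day 1. Mrps30 stands at the upper end on both of these days. The interval lay wholly above 0 for 6 genes and below 0 for 3 on each of these days, and held 0 for the other 44 and 45. Intervals were not taken for all genes, so these counts have no share to be compared with.

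On day 6 the pair was wider. Only 23 genes reached 10 CPM, and their median log2 ratio was -0.24, beside -0.02 for all genes. The difference between these medians was -0.22, and it depended on the level asked for: it was -0.10 over the 50 genes that reached 5 CPM and -0.70 over the 4 that reached 20 CPM. The interval lay above 0 for 5 of the 23 genes and below 0 for 8, and held 0 for 10. A 2-fold ratio was reached by 5 of the 23 (6.33% of all genes), 3 lower and 2 higher in L. Mrpl51, a large subunit protein, had 13.5 CPM in SYN L and 33.8 CPM in SYN C (-1.39, interval -1.67 to -1.14). Mrps5, of the small subunit, had 12.6 CPM in SYN L and 26.2 CPM in SYN C (-1.13), and Mrpl50 had 18.2 CPM in SYN L and 35.2 CPM in SYN C (-1.02). Mrps18b had 15.8 CPM in SYN L and 4.52 CPM in SYN C (1.69), Mrps10 had 21.4 CPM in SYN L and 6.16 CPM in SYN C (1.69), and Mrpl13 followed at 0.60. Mrps18b and Mrps10 reached the 10 CPM average through SYN L alone, so their place among the 23 depended on the arm in which they were high. The same holds for others of the 23, such as Mrpl13 (14.4 CPM in SYN L, 8.91 CPM in SYN C) and Mrpl33 (9.08 CPM in SYN L, 17.0 CPM in SYN C). The counts of intervals and of 2-fold ratios include such genes. Mrps10 was lower in L on day 1 and higher in L on day 6. Mrps30, higher in L on days 1 and 20, was lower in L on day 6, at -0.73 (interval -1.05 to -0.44). Over all genes the median absolute deviation of the log2 ratio was 0.40 on day 6, against 0.17 on day 1 and 0.16 on day 20, so the wider pair is not particular to these genes.

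**Figure D2:**
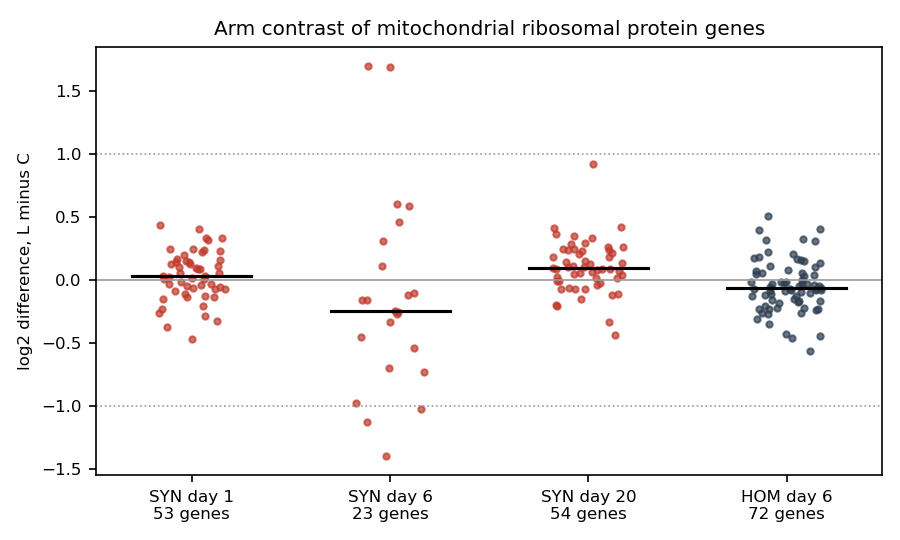
Log2 difference between arms (L minus C, vertical axis) of each mitochondrial ribosomal protein gene in the SYN pairs of days 1, 6 and 20 (genes averaging 10 CPM or more) and in the homogenates (edgeR, 3 L and 3 C libraries); black bars are medians and dotted lines mark a 2-fold difference. The 53 genes of day 1 and 54 of day 20 lie within a 2-fold difference, and 5 of the 23 genes of day 6 lie beyond it.

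With the 3 days as blocks, the arm contrast in SYN called 0 of the 72 genes (0% of 13363 genes tested by edgeR, 0 of the 72 by DESeq2 and limma-voom, and 0 of the 72 at an unadjusted p under 0.05, against 1.7% of all genes). The median log2 difference was 0.01, beside -0.01 for all genes. The smallest p values belonged to Mrpl45 (0.48, SE 0.25) and Mrps17 (0.71, SE 0.37) among genes higher in L, and to Mrpl51 (-0.46, SE 0.32) and Mrpl48 (-0.34, SE 0.27) among those lower, each with an edgeR adjusted p of 0.910. Between days 20 and 1, 0 of the 72 genes were called by edgeR (0% of all genes, 0 of the 72 at an unadjusted p under 0.05), and the median was -0.03 beside 0.00. At the ends by p were Mrps11 (0.43, SE 0.36), Mrps25 (0.18, SE 0.20), Mrpl9 (-0.34, SE 0.27) and Mrps21 (-0.21, SE 0.21), each with an edgeR adjusted p of 1.00.

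Day 6 stood apart from days 1 and 20 within the synapse fraction. At an edgeR adjusted p under 0.05, 11 of the 72 genes (15.3%) were lower on day 6, near the 15.2% of all genes. Only 1 (1.39%) was higher, against 18.2% of all genes. In either direction, 16.7% of the 72 passed, against 33.5% of all genes. The median log2 difference was -0.41, beside -0.08 for all genes. By subunit it was -0.41 for large and -0.13 for small subunit genes, a difference that was not tested. Scaled to library totals, where the median of all genes moves to -0.60, 34 were lower and 0 higher. That setting called 6567 of all 13363 genes tested, in either direction. Without SYN C of day 6 the members' median was -0.42, beside -0.06 for all genes. Without SYN L of day 6 it was -0.46, beside -0.06.

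The day 6 SYN libraries also stood apart in composition and in markers of other cell types. They had counts for 13748 genes in L and 13546 in C, against 15888 to 16036 on days 1 and 20, and their 100 most abundant genes took 27.2% and 28.6% of counts, against 19.9 to 20.5%. Relative to days 1 and 20, 3 of 3 tested microglial markers (median log2 difference 1.19) and 3 of 4 astrocyte markers (0.55) were called higher. Of the 5 neuronal markers, 2 were called higher and 2 lower. Of the 5 synaptic and dendritic mRNAs, 3 were called lower (-0.45) and 0 higher. Lower were 2 of 3 endothelial markers (-1.89), 2 of 3 pituitary markers (-3.39) and 2 of 4 oligodendrocyte markers (-0.53), of which another was higher. Alb had 18.4 CPM in SYN L and 103 CPM in SYN C on day 6, against at most 0.0877 CPM on days 1 and 20. The part of these differences in the day 6 results was not tested.

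Of the 11 lower on day 6, 8 belong to the large subunit (of 45) and 3 to the small (of 26). Mrpl47, a protein at the rim of the exit tunnel (chr3:32725397-32737605) had 1.63 CPM in SYN L and 2.36 CPM in SYN C on day 6, against 12.2 and 10.2 CPM in SYN L and 9.90 and 13.9 CPM in SYN C on days 1 and 20. The groups are far apart (log2 difference -2.02, SE 0.40, edgeR adjusted p = 0.00936). This gene overlaps Actl6a and Ndufb5. Mrpl4, which reaches into the tunnel wall, had 3.34 CPM in SYN L and 3.15 CPM in SYN C on day 6, against 14.0 and 12.9 CPM in SYN L and 12.1 and 13.6 CPM in SYN C on days 1 and 20 (-1.50, SE 0.31, edgeR adjusted p = 0.0116). Mrpl44 (-1.78), Mrpl36 (-1.96), Mrpl37 (-0.97) and Mrpl24 (-1.09) were also lower, as were Mrpl23, Mrpl27, Mrps7, Mrps26 and Mrps27. Among the genes given here with values, all 5 but Mrpl47 lost the call, but not the direction, when 1 library of day 1 or 20 was left out. Mrpl23, Mrpl27, Mrps7, Mrps26 and Mrps27 were not followed gene by gene. Fewer than 11 of the 72 were called lower in each of these fits. Without SYN C of day 1, the difference was -1.75 for Mrpl44 (edgeR adjusted p = 0.0704), -1.83 for Mrpl36 (0.0597) and -0.85 for Mrpl37 (0.0908). Without SYN L of day 1 it was -1.46 for Mrpl4 (edgeR adjusted p = 0.0639) and -0.98 for Mrpl24 (0.0888). Without SYN C of day 20 it was -1.48 for Mrpl4 (edgeR adjusted p = 0.0642) and -1.14 for Mrpl24 (0.0513), and without SYN L of day 20 -1.62 for Mrpl44 (0.0871) and -1.07 for Mrpl24 (0.0555).

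Mrps33 was the only 1 of the 72 called higher on day 6, while 21 lay above 0 and 51 below. It had 24.5 CPM in SYN L and 31.8 CPM in SYN C on day 6, against 19.5 and 20.1 CPM in SYN L and 17.5 and 20.0 CPM in SYN C on days 1 and 20. Both day 6 libraries lie above the others (log2 difference 1.06, SE 0.20, edgeR adjusted p = 0.00777). Scaled to library totals the difference was 0.54, with an edgeR adjusted p of 0.0603. Mrps18a (-0.84), Mrps36 (-0.69) and Mrps30 (0.85) did not pass, with edgeR adjusted p values of 0.0692, 0.0749 and 0.0952, and this depended on the processing. Scaled to library totals, Mrps18a (-1.36) and Mrps36 (-1.20) were called lower, and both were also called lower without either of the day 6 libraries. Mrps30 passed under limma-voom (0.84, adjusted p = 0.0494). It was 1.40 without SYN L of day 6 (edgeR adjusted p = 0.000134) and 0.19 without SYN C of day 6 (edgeR adjusted p = 0.469). Of the other mitoribosome proteins, Dap3, a small subunit protein that binds GTP, was lower on day 6 (-0.91, SE 0.18, edgeR adjusted p = 0.0104), and so was Ict1, a release factor built into the large subunit (-0.86, SE 0.26, edgeR adjusted p = 0.0477).

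The fraction comparison sets the SYN libraries of days 1 and 20 against the homogenates of day 6, so fraction, day and table cannot be told apart. Of the 72 mRNAs, 27 passed (58.6% of all genes did): 8 were higher in SYN (28.5% of all genes were) and 19 lower (30.1% of all genes were). The median log2 difference was -0.13, beside -0.04 for all 13850 genes tested. Scaled to library totals, where the median of all genes moves to -0.24, 2 were higher and 36 lower, and the members' median stayed 0.09 below that of all genes. That setting called 8727 of all 13850 genes, in either direction. The 72 values ran from -0.86 to 1.20.

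Mrps36 was the highest of the 72 in this comparison. It had 16.6 and 18.3 CPM in SYN L and 16.7 and 15.7 CPM in SYN C on days 1 and 20, against 10.5, 5.89 and 9.67 CPM in HOM L and 8.09, 6.30 and 9.97 CPM in HOM C. All 4 SYN libraries lie above all 6 homogenates (1.20 on the log2 scale, SE 0.16, edgeR adjusted p = 5.26e-06). Mrpl4 (chr9:21002738-21008839) had 14.0 and 12.9 CPM in SYN L and 12.1 and 13.6 CPM in SYN C, against 7.53, 3.54 and 7.47 CPM in HOM L and 7.62, 8.96 and 8.65 CPM in HOM C. Here too the groups do not overlap (1.06, SE 0.18, edgeR adjusted p = 1e-04). These 2 were called higher under library totals as well.

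Smaller differences were found for Mrpl10, which anchors the stalk of the large subunit (0.30, SE 0.09), Mrpl23, at the exit tunnel (0.47, SE 0.16), Mrps21 (0.31, SE 0.11) and Mrpl17 (0.27, SE 0.10). Scaled to library totals these were 0.10, 0.28, 0.12 and 0.07 and did not pass. Mrpl40 and Mrpl38 complete the 8. Among the genes given with values, the calls of Mrpl23, Mrps21 and Mrpl17 were also lost without single libraries. Mrpl40 and Mrpl38 were not followed gene by gene. The number of the 72 called higher fell to 5 without SYN C of day 1 and to 4 without SYN C of day 20. In these fits 7299 of 14080 and 7357 of 14105 genes were called, in either direction. Without SYN L of day 1 the edgeR adjusted p was 0.077 for Mrpl23 and 0.0595 for Mrps21, without SYN C of day 1 it was 0.0956 for Mrps21, and without SYN C of day 20 it was 0.0581 for Mrpl23 and 0.0554 for Mrpl17. Mrpl17 also failed to pass without SYN L of day 20 (0.15), HOM C replicate 2 (0.057) or HOM L replicate 3 (0.0606). Mrps18a, at 0.19 (SE 0.14), did not pass and was -0.01 scaled to library totals.

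The 3 lowest in SYN were small subunit proteins. Mrps9, which has a bacterial counterpart (chr1:42851233-42905683), had 16.5 and 17.0 CPM in SYN L and 14.5 and 14.5 CPM in SYN C on days 1 and 20, against 26.6, 35.8 and 33.6 CPM in HOM L and 33.3, 34.5 and 29.97 CPM in HOM C (-0.86, SE 0.11, edgeR adjusted p = 4.52e-06). Mrps35 (chr6:147042764-147073991) had 11.8 and 9.53 CPM in SYN L and 12.004 and 10.2 CPM in SYN C, against 23.6, 20.9 and 21.1 CPM in HOM L and 23.3, 22.7 and 21.8 CPM in HOM C (-0.83, SE 0.11, edgeR adjusted p = 7.26e-06). For both, every SYN library lies below every homogenate. Mrps33 was lower by as much, with 19.5 and 20.1 CPM in SYN L and 17.5 and 20.0 CPM in SYN C on days 1 and 20, against 31.4 to 33.4 CPM in HOM L and 40.0 to 49.0 CPM in HOM C (-0.80, SE 0.11, edgeR adjusted p = 1.29e-05). Mrpl1, of the mobile stalk of the large subunit, fell by 0.63 on the log2 scale, Mrpl50 by 0.60, Mrps25 by 0.54 and Mrps30 by 0.39. The call of Mrps30 was lost without SYN C of day 1 (edgeR adjusted p = 0.065) or of day 20 (edgeR adjusted p = 0.0825).

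**Figure D3:**
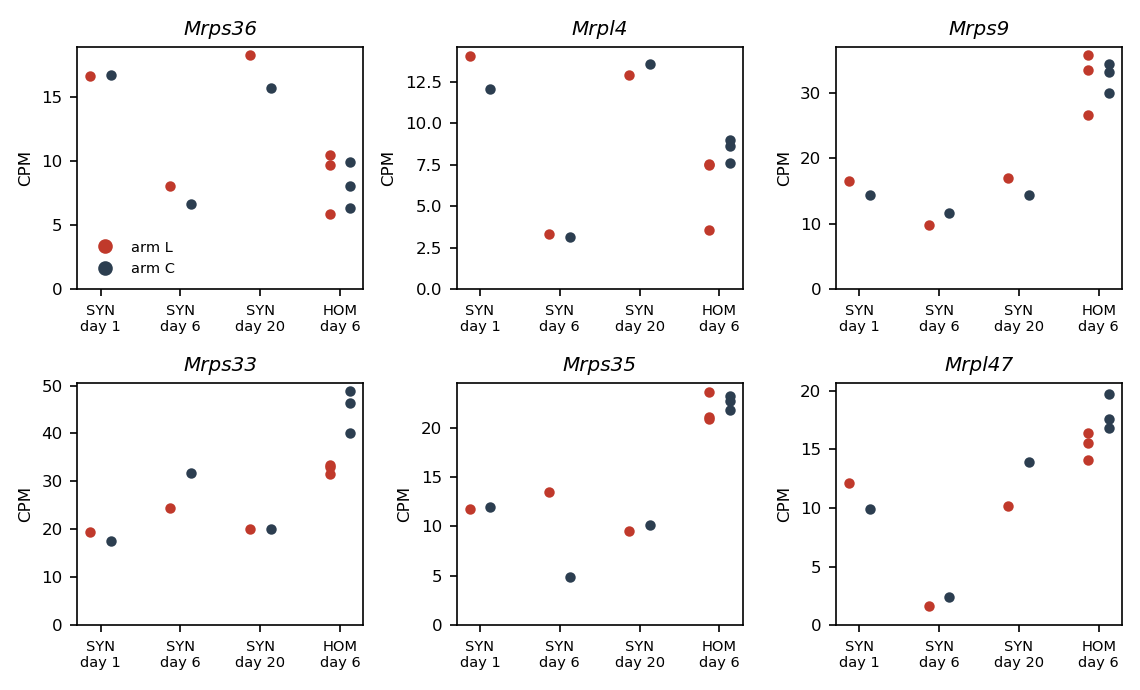
Level (CPM, vertical axis from 0) of 6 mitochondrial ribosomal protein genes in each library, by fraction and day, with L left of C. Mrps36 and Mrpl4 lie higher in SYN of days 1 and 20 than in HOM, Mrps9, Mrps33 and Mrps35 lie lower, and Mrpl47 is lowest in SYN of day 6.

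On day 6 both fractions are at hand, 2 SYN against 6 HOM libraries, and the spread comes from the homogenates alone. Of the 72 mRNAs, 44 passed (67.3% of all genes did): 40 were lower in SYN (38.5% of all genes were) and 4 higher (28.7% of all genes were). The median log2 difference was -0.52, beside -0.22 for all 14137 genes tested, and it was -0.53 and -0.56 for large and small subunit genes. Scaled to library totals, where the median of all genes moves to -0.99, 64 were lower and 0 higher, and the members' median stayed 0.31 below that of all genes. That setting called 11151 of all 14137 genes, in either direction. A fit with additive terms for fraction and arm, chosen after seeing the wide day 6 pair, called 29 lower and 1 higher. It called 7526 of all 13744 genes tested, in either direction.

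Mrpl47 differed most by p, with the day 6 SYN values given above against 15.5, 14.1 and 16.4 CPM in HOM L and 17.6, 19.8 and 16.9 CPM in HOM C (-2.32, SE 0.19, edgeR adjusted p = 4.62e-06). Mrpl24, at the exit tunnel, had 5.82 CPM in SYN L and 7.54 CPM in SYN C, against 32.7, 27.6 and 32.0 CPM in HOM L and 33.5, 32.3 and 35.4 CPM in HOM C (-1.51, SE 0.13, edgeR adjusted p = 7.40e-06). SYN lies far below HOM for both genes. Mrpl44 fell by 1.81 on the log2 scale, and Mrpl23 by 2.88 with 2.40 CPM in SYN L and 0.197 CPM in SYN C. Mrpl23 had 3 counts in SYN C: without that library the difference was -1.18, and without SYN L it was -4.59, both called. The calls of Mrps17 (-1.36) and Mrps2 (-1.35) rested on SYN C: without it the log2 differences were -0.25 and -0.37, with edgeR adjusted p values of 0.216 and 0.153, and without SYN L they were -2.47 and -2.33.

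The 4 called higher were Mrps21 (0.58), Mrps30 (0.47), Mrpl48 (0.58) and Mrps33 (0.31), and scaled to library totals all 4 were below 0, at -0.19, -0.30, -0.19 and -0.46. Without SYN C, the differences of these 4 were 0.47, 0.11, 0.15 and 0.29 and their calls were lost, while other members were called higher. Without SYN L, Mrps30 was at 0.82 and Mrpl48 at 1.01. Mrps33 also failed to pass under DESeq2 and limma-voom and without SYN L or any of HOM C replicates 1 and 3 and HOM L replicates 1 and 3. Mrpl48 failed to pass without HOM C replicate 1 or 2 or HOM L replicate 3. Mrps36, at 0.57 (SE 0.25, edgeR adjusted p = 0.0638), did not pass, and was -0.20 scaled to library totals. It passed under RLE scaling (edgeR adjusted p = 0.0498) and without HOM L replicate 1 (0.0489) or HOM C replicate 3 (0.0439). Mrps18a fell by 0.61 on the log2 scale (SE 0.19, edgeR adjusted p = 0.0163), and without SYN L of day 6 the difference was -0.24 (edgeR adjusted p = 0.441), and without SYN C -0.98.

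Mrpl42, Mrpl55 and Mrps28 were at 0 counts in 1 of the day 6 SYN libraries. Mrpl42 was at least 18.3-fold higher in SYN L than in SYN C, where it was not counted, while Mrpl55 and Mrps28 were at least 16.3-fold and 12.2-fold lower in SYN L, where they were not counted, than in SYN C. The bounds set the zero at 3 counts in that library. Their fitted log2 differences in the day 6 fraction comparison were -1.92 for Mrpl42, which did not pass, and -3.70 and -3.42 for Mrpl55 and Mrps28, which were called lower. These values depend on the prior count. With the zero at the floor they were 0.58, -1.07 and -0.79, so the direction of Mrpl42 turned, and the members' median was -0.51.

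**Figure D4:**
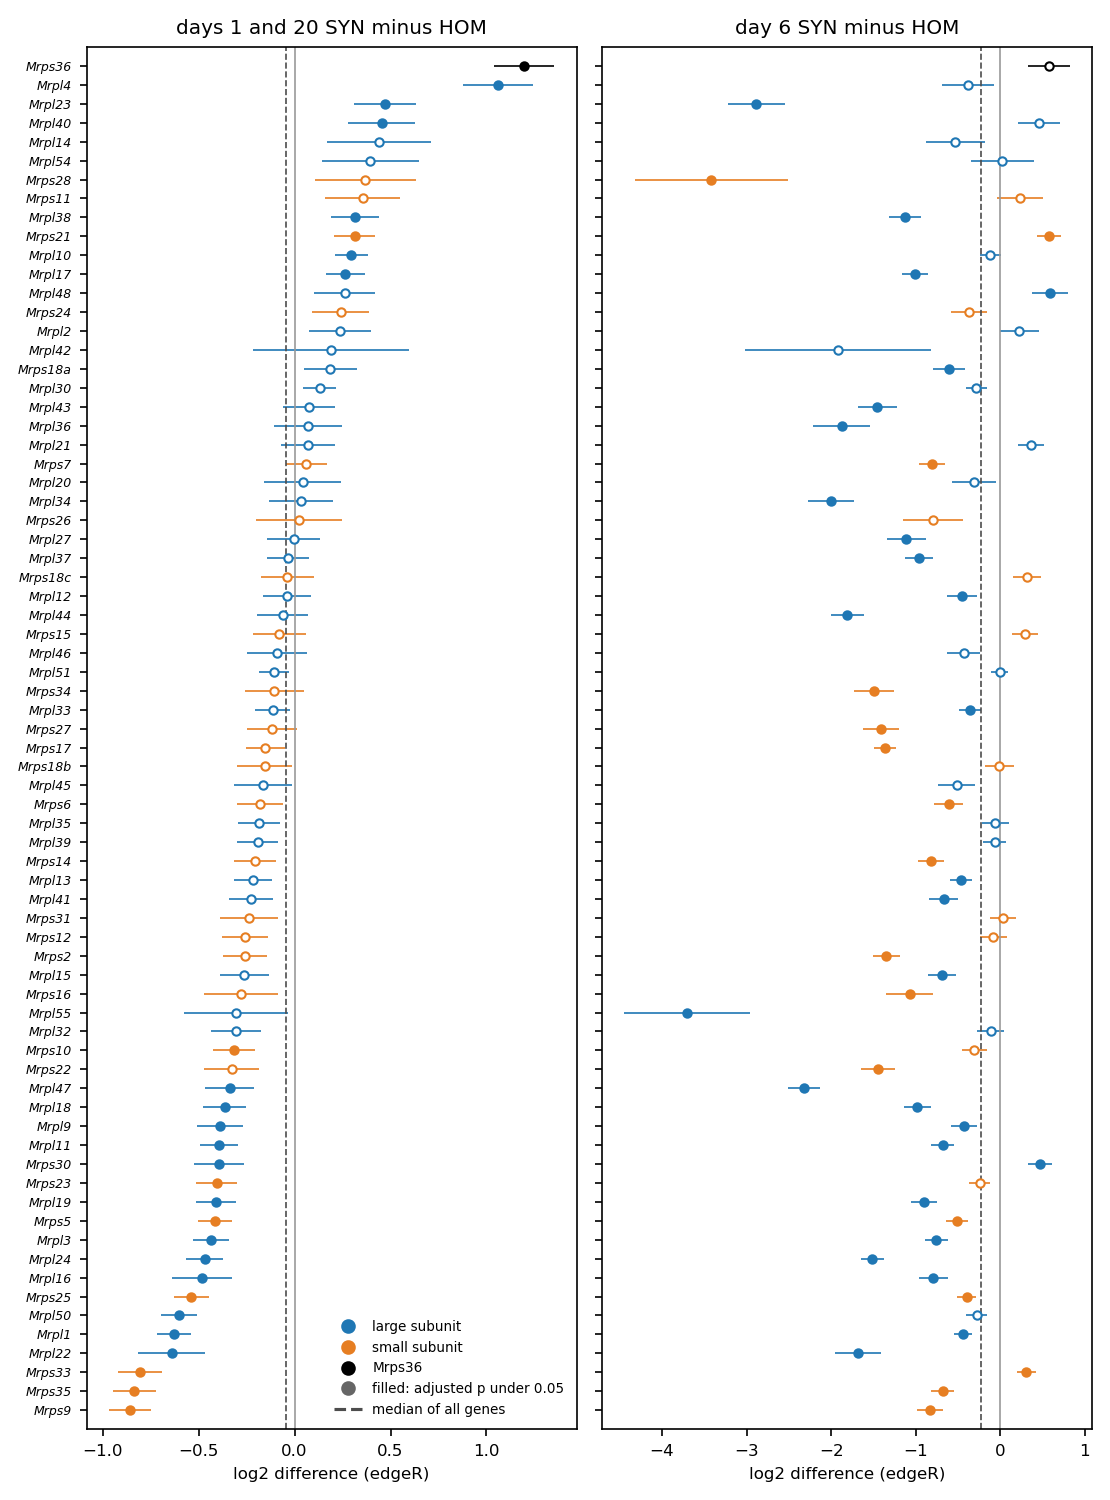
Log2 difference SYN minus HOM (horizontal axes, edgeR, with SE) of the 72 mitochondrial ribosomal protein genes, for SYN of days 1 and 20 (left) and day 6 (right), ordered by the left panel; filled points have an adjusted p under 0.05 and dashed lines mark the median of all genes (-0.04 left, -0.22 right). The filled points above 0 on the right (Mrps21, Mrps30, Mrpl48 and Mrps33) fall below 0 when scaled to library totals, and the fitted values of Mrpl42, Mrpl55 and Mrps28 there rest on a library with 0 counts.

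The other components of mitochondrial translation were set beside the 72, from lists chosen with earlier results of these data known. Of 47 tested factors for initiation, elongation, release, tRNA charging, mRNA handling and ribosome assembly, 22 were lower and 4 higher in SYN of days 1 and 20, with a median of -0.31. On day 6, 21 of 46 were lower and 6 higher, with a median of -0.38. Beside them, 30.1% of all genes were called lower and 28.5% higher on days 1 and 20, and 38.5% lower and 28.7% higher on day 6, and the same shares apply to the classes below. Mtif2, the initiation factor that brings the first tRNA, differed by -0.88 (SE 0.10, edgeR adjusted p = 1.38e-06) on days 1 and 20 and by -1.02 on day 6. Lrpprc, which stabilises mitochondrial mRNAs, differed by -0.55 and -0.82. Oxa1l, which inserts new proteins into the inner membrane, was higher in both, by 0.82 (SE 0.11, edgeR adjusted p = 7.80e-06) and 0.71.

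The mRNAs that mitoribosomes translate stood at the other end. All 5 that are in the tables (mt-Nd3, mt-Nd4, mt-Nd4l, mt-Nd5 and mt-Co3) were higher in SYN of days 1 and 20, with a median of 2.76, and 4 of the 5 on day 6, with a median of 3.43. Their summed level was 23566 to 30529 CPM in SYN and 3143 to 5158 CPM in HOM. Cytosolic ribosomal protein mRNAs had medians of 0.70 (66 of 81 higher, 3 lower) and 0.69 (60 of 81 higher, 1 lower). Nuclear genes of oxidative phosphorylation had medians of 0.32 (38 of 77 higher, 7 lower) and -0.08 (19 of 76 higher, 24 lower). These medians and calls are on the TMM scale. Summed as CPM, the cytosolic class had 6704 CPM in SYN L and 7299 CPM in SYN C on day 6. This lay within the 6277 to 8512 CPM of HOM, while days 1 and 20 had 9839 to 10472 CPM. The oxidative phosphorylation class had 3192 and 3171 CPM in SYN L and C on day 6, against 5071 to 6383 CPM in HOM. On days 1 and 20 it had 5450 to 5704 CPM. The difference between these classes and the 72 was not tested.

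**Figure D5:**
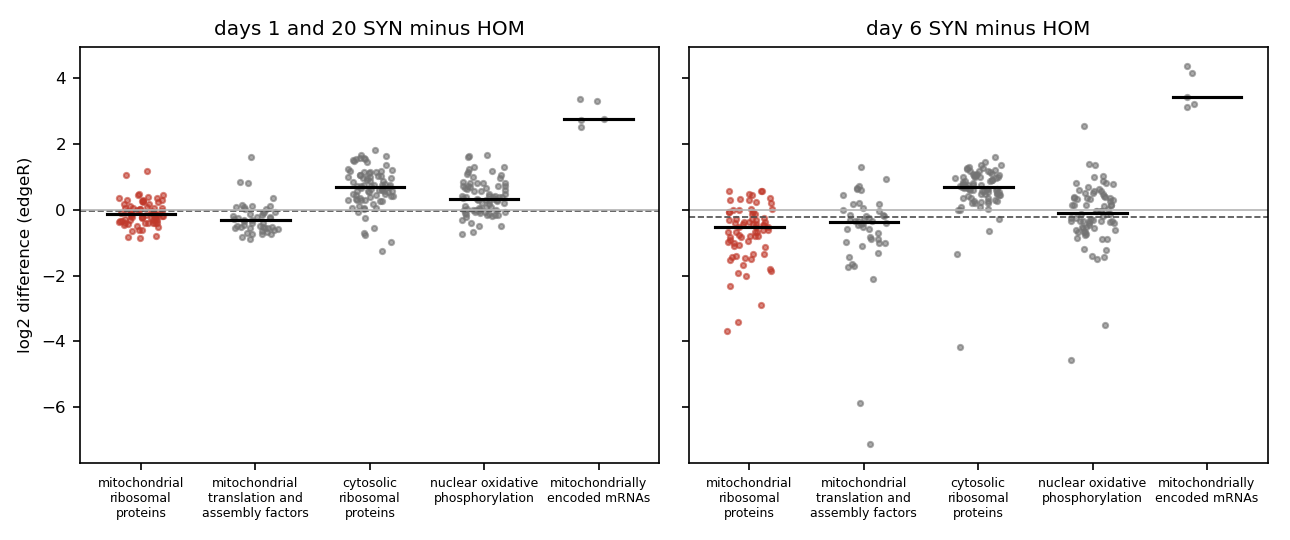
Log2 difference SYN minus HOM (vertical axis, edgeR) of each gene in 5 classes, for SYN of days 1 and 20 (left) and day 6 (right); black bars are class medians and dashed lines the median of all genes. The mitochondrial ribosomal proteins (red) have medians of -0.13 and -0.52 and the mitochondrially encoded mRNAs 2.76 and 3.43, and scaled to library totals the medians of all genes would be -0.24 and -0.99 in place of -0.04 and -0.22.

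Glial markers moved with the fraction. All 4 astrocyte and all 4 oligodendrocyte markers were higher in SYN of days 1 and 20, as were 3 of 3 tested microglial and 4 of 4 choroid plexus markers, with medians of 0.94, 1.21, 1.58 and 1.24. On day 6 the medians were 1.71, 1.28, 2.76 and 1.47, with all tested markers of these lists called higher but for 1 of the 4 oligodendrocyte markers, at -0.39. The 3 endothelial markers were called higher in SYN of days 1 and 20 (median 0.50) and called lower in SYN of day 6 (median -1.60). Gene length moved with it too: across genes, Spearman's rho between exon length and the difference on days 1 and 20 was -0.19 over 13749 genes and -0.36 over 71 of the 72, all measured in the same libraries. On day 6 rho was 0.03 and -0.02. The part of cell types and length in the fraction results was not tested.

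The arm contrast itself differed between fractions on day 6 for 19 of the 72 genes by edgeR (18.2% of all genes), 11 with a higher (10.7% of all genes) and 8 with a lower difference (7.51% of all genes) in SYN than in HOM. This rests on 1 SYN library per arm, assumed to vary like the homogenates. Under limma-voom, 4 of the 72 and 276 of all 14137 genes were called. Mrps17, a small subunit protein with a bacterial counterpart, had 14.6 CPM in SYN L and 3.47 CPM in SYN C, against 29.7, 26.7 and 28.6 CPM in HOM L and 35.2, 31.5 and 36.2 CPM in HOM C (log2 difference of differences 2.22, SE 0.25, edgeR adjusted p = 0.00189). On days 1 and 20 it had 27.3 and 25.5 CPM in SYN L and 22.4 and 23.2 CPM in SYN C, a smaller gap. Its log2 ratio was 0.24 on day 1 (interval 0.0078 to 0.47) and 0.14 on day 20 (interval -0.11 to 0.39, which holds 0). Mrpl51 went the other way, with 13.5 CPM in SYN L and 33.8 CPM in SYN C on day 6 (-1.41, SE 0.20, edgeR adjusted p = 0.00311), but 30.9 and 29.1 CPM in SYN L and 27.4 and 31.7 CPM in SYN C on days 1 and 20. Its arms overlap on those days. Mrps30, Mrps18a and Mrps36 did not pass (-0.71, -0.74 and 0.05).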

How the data were processed

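The authors deposited 4 tables of raw counts, whole reads per gene. The labels' protocols describe removal of ribosomal RNA, fragmentation and stranded libraries primed at random. The submitters' processing notes name cutadapt 1.9.3, HISAT2 2.0.4, HTSeq 0.9.1, edgeR and build mm10. Which annotation, strand setting or gene filter the authors chose is not given in the sources used here.

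Every comparison was fitted on all genes of the tables concerned with edgeR 4.0.16 in R 4.3.3 (filterByExpr, TMM scaling, robust quasi-likelihood) and adjusted by Benjamini-Hochberg, with 0.05 as the threshold. All 72 genes passed the filter in each fit. The synapse fits take day or arm as a block, and the day 6 fraction fits use 4 groups of fraction and arm. Ratios of synapse pairs were taken on the TMM scale, adding 2 counts. Levels per kilobase use exon unions of GENCODE M21. Intervals cover counting error only, since reads carry no molecular identifiers. Alternatives were RLE and library-total scaling, no filter, DESeq2 1.42.0, limma-voom 3.58.1 and leaving out each library. The fits of the HOM arm, the SYN arm and both fraction comparisons were tested on simulated data, and the other fits were not.

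The members and all lists were chosen with earlier results of these data known. In each comparison, called genes were named up to 6 a direction by p, or the 2 with the smallest p where none passed; in each pair the 3 at either end; by level the 5 at either end; Mrps30, Mrps18a and Mrps36 always.

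The homogenates of the same number share a number in their column headers, and no label says what it stands for. The correlations of their deviations were 0.01, 0.25 and 0.18, against -0.26 to 0.11 between libraries of different number. In replicate 2, mt-Co3 had 1606 CPM in HOM L and 981 CPM in HOM C, against 129 to 223 CPM in the other homogenates. Whether the numbers mark a shared batch was not tested. The main fit did not pair the libraries, and a replicate block was run as an alternative.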

Additional observations from a re-analysis of the deposited data

Results flagged for a closer look

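The difference between L and C on day 6 itself differed between SYN and HOM by edgeR for 19 of the 72 genes, each with 1 SYN library per arm, and 6 of them per direction, taken by p, are given here. The log2 differences of differences above 0 were 2.22 for Mrps17, 2.59 for Mrpl46, 1.96 for Mrps2, 2.33 for Mrps22, 1.60 for Mrps10 and 2.48 for Mrpl43. Mrpl46 had 11.1 CPM in SYN L and 1.77 CPM in SYN C, and Mrpl43 had 7.28 CPM in SYN L and 1.44 CPM in SYN C. Those below 0 were -3.93 for Mrpl22, -1.41 for Mrpl51, -1.38 for Mrps5 and -1.55 for Mrpl17. Mrpl22 had 0.343 CPM in SYN L and 4.98 CPM in SYN C, against 6.15 to 7.69 CPM in HOM L and 6.65 to 7.82 CPM in HOM C. Mrpl55 and Mrps28 had fitted values of -9.37 and -9.32, which depend on the prior count because SYN L was at 0, and are no measure of size. Under limma-voom, 8 of the 12 no longer passed. Over all genes 18.2% were called in this comparison, and the edgeR adjusted p values of the 12 lay between 0.00189 and 0.00918.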

How the results depend on the processing

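The 0 calls between arms in HOM and SYN and between days 20 and 1 held under every alternative run. Without single libraries, the members' median relative to all genes ran from -0.12 to -0.03 (HOM arm), from -0.40 to -0.35 (SYN day 6, 8 to 41 called), from -0.12 to -0.0041 (SYN days 20 and 1), from -0.47 to -0.27 (fraction on day 6, 33 to 46 called) and from -0.13 to -0.06 (fraction on days 1 and 20, 19 to 30 called). For the SYN arm it was 0.029, and with 1 day left out it ran from -0.045 (without day 20) to 0.065 (without day 6). For SYN day 6, the 8 calls stood beside 3722 of 13846 genes, and the 41 rest on 1 library of day 6. For the fraction on day 6, the 46 stood beside 9505 of 14141 genes, and the 33 rest on 1 SYN library. For days 1 and 20, the 19 and 30 stood beside 7357 of 14105 and 8208 of 13746 genes. Library totals gave 34 calls for SYN day 6, beside 6567 of all 13363 genes. With limma-voom there were 4 for the arm by fraction, beside 276 of 14137. The counts alone do not set the 72 apart from all genes. The day 6 pair's median relative to all genes was -0.10 at 5 CPM and -0.70 at 20 CPM. Library totals turned Mrps21 (-0.19), Mrps30 (-0.30), Mrpl48 (-0.19), Mrps33 (-0.46) and Mrps36 (-0.20) in the day 6 fraction, and Mrps18a (-0.011) on days 1 and 20. For the SYN arm, Mrps30 was -0.065 with limma-voom, -0.14 without the day block, -0.18 without day 1 and -0.16 without day 20, and Mrpl51 was 0.011 without day 6. With 1 library left out, Mrps30 ran from -0.12 to 0.038 and Mrps36 from -0.066 to 0.31 (HOM arm), from -0.46 to 0.21 and from -0.10 to 0.13 (SYN days 20 and 1), and Mrps36 from -0.16 to 0.22 (arm by fraction). With a replicate block, 0 of the 72 genes and 2 of all genes were called in HOM (median -0.06), where the numbers were not shown to pair libraries. The cause of these shifts was not tested. Which size of effect the SYN fits between days could have found was not tested, and for the SYN arm the outcome of the simulation is not given here. Depth limits the genes at few counts, such as Mrpl23 on day 6.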
